A study of Danio rerio with 32 samples.

Results

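V2a interneurons that carried a retrograde tracer 3 weeks after a spinal cord injury were compared with traced V2a interneurons of uninjured zebrafish, by RNA sequencing of sorted cells. V2a interneurons are excitatory neurons of the ventral spinal cord that drive swimming. Adult zebrafish, unlike mammals, regrow spinal axons across a lesion and regain swimming. A neuron that regrows a long axon needs membrane, cytoskeleton, local protein synthesis and ATP, and it meets immune and glial cells at the injury.

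All groups were sorted on the green reporter of the Tg(Chx10:GFP) strain from spinal cord segments 1 to 7, which lie rostral to the lesion in injured fish, with 20 fish collected per condition. Rhodamine dextran was applied so that axons carried it back to the cell body. The 5 Dcon libraries hold reporter-positive cells with tracer from uninjured fish, and the 5 D3W libraries hold such cells 3 weeks after injury, which the labels describe as having a regrown axon. Untraced reporter-positive cells gave 6 libraries from uninjured fish (Gcon) and 5 at 3 weeks (G3W). The tracer marks an axon that reached the place of application, so D3W cells without enough dye would fall into G3W. A cDNA kit for low RNA input was used. Whether the libraries of a group are from different fish is not in the labels, so the p-values reflect how much the samples spread, possibly for technical reasons. No age is given.

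Genes were described where they reached 1 FPKM (a fragment count scaled to the length of the gene and to the library) in at least 5 of the 10 Dcon and D3W libraries. That held for 12357 of the 42370 genes in the deposited table, and 10888 of them had a symbol. All 10 libraries were at 1 FPKM or more for 2993 of these genes, and 1661 met the rule with 5 libraries exactly. The genes that met it only through one group numbered 14 for D3W and 8 for Dcon. Levels below are deposited FPKM in the order of replicates 1 to 5. Fold changes are differences of log2(FPKM + 1) after scaling each library by a median ratio, which understates the change of low genes. Adjusted p-values are from limma with Benjamini-Hochberg adjustment over all 22552 genes tested, and "rose" and "fell" are used for an adjusted p under 0.05.

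The 10 libraries held an inferred 15.6 to 27.7 M fragments, so 3 fragments in a gene of 1 kb correspond to 0.108 to 0.192 FPKM. Between 7755 and 16366 genes reached 1 FPKM, the fewest in D3W replicates 3 and 5. Transcripts of the 13 mitochondrially encoded proteins made up 10.5% ± 2.37 of summed FPKM in Dcon and 17.3% ± 5.90 in D3W (SD, n = 5 each; exact permutation test, two-sided p = 0.0476, smallest possible 0.00794). Without one library that p was as high as 0.103. Dcon replicate 4 stood apart from the other uninjured libraries. It held the haemoglobin gene hbaa1 at 9123 FPKM against at most 72.0 in the others, the cholinergic enzyme gene CHAT at 389 against at most 59.0, and the peripherin gene PRPH at 931 against at most 10.2. The total number of genes called is therefore also given without this library, but the counts for single gene lists are not.

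Of the 12357 genes, 105 rose and 65 fell, or 1.38% in all, beside 0.789% of all genes tested. Among all genes tested 0.492% rose and 0.297% fell. Genes that rose had a median fold change of 3.39 and those that fell one of -2.77, beside a median of -0.05 over the 12357 genes and 0.01 over all genes tested. Of the genes that rose, 8 had met the rule only through D3W, and of those that fell 4 only through Dcon, so these had to differ. The first set holds rgl3a, SOSTDC1 (ENSDARG00000056021), scn4ab and CYP26B1 and the second 5S_rRNA (ENSDARG00000108569), whose values below are a description. With FPKM as deposited the median of the 12357 genes was -0.27, and after quantile normalization it was -0.14. The split of calls moved with that scaling, to 54 higher and 98 lower as deposited and to 54 and 55 after quantile normalization. In deposited FPKM every D3W library lay above every Dcon library for 56 of the 105 and below for 42 of the 65. Over all genes tested this held for 0.603% and 1.18%. Overlap of the groups was judged on these unscaled values throughout. The main fit estimated the spread from all 32 libraries, and with only Dcon and D3W fitted 15 calls remained. Without D3W replicates 3 and 5, a fit with fewer D3W libraries, 12 remained. Among them were icn, s100a10b, si:ch211-153b23.5, TCIM (ENSDARG00000076858), crlf1a, rgl3a and scn4ab, which rose, and H3-3B and 5S_rRNA (ENSDARG00000108569), which fell. Without Dcon replicate 4 there were 67 calls, 58 of them among the 170.

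**Figure D1:**
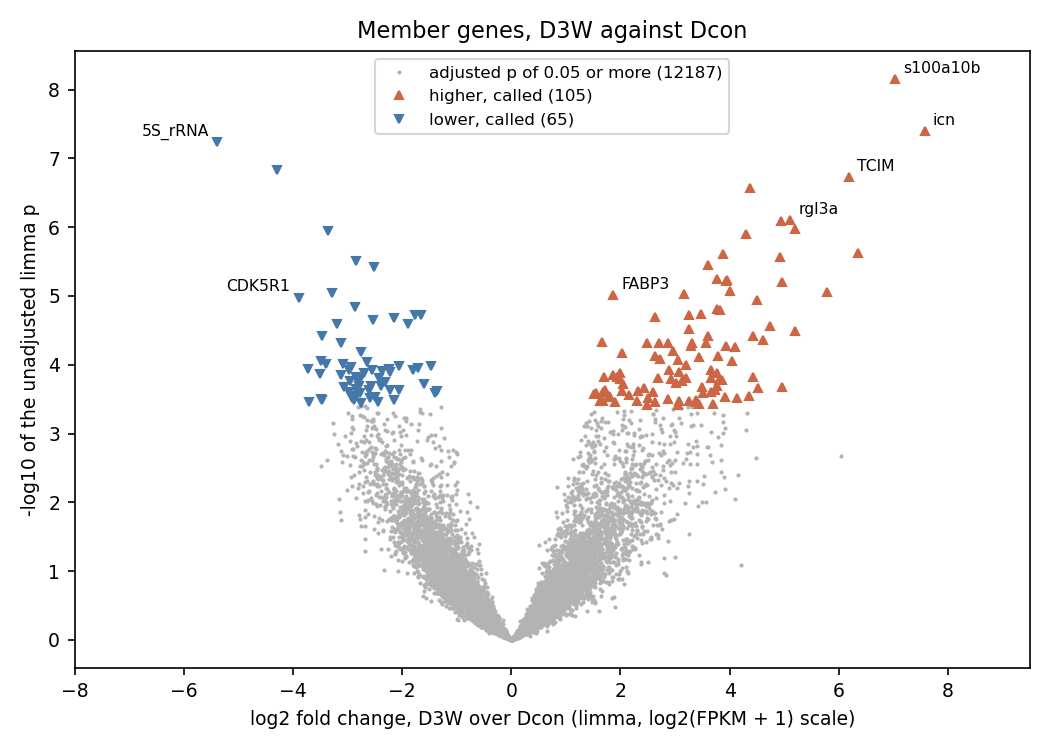
Each point is 1 of the 12357 genes, with the fold change of D3W against Dcon (log2(FPKM + 1) scale) on the horizontal axis and -log10 of the limma p-value on the vertical axis. The 105 genes that rose lie at the upper right and the 65 that fell at the upper left, above the 12187 genes that did not pass the test, and the largest fold change is that of icn (7.57).

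Several of the genes with large increases code for secreted or signalling proteins; they were not tested as a group. crlf1a, which codes for a soluble cytokine receptor-like factor of the gp130 family, was at 0.177, 2.67, 0, 0 and 0 FPKM in Dcon and at 40.7, 47.2, 22.2, 28.7 and 127 in D3W. It rose by 5.20 (SE 0.89, limma adjusted p = 0.00255). The groups were far apart, with the lowest D3W library above the highest Dcon library. rgl3a, a gene named for a Ral guanine nucleotide exchange factor, was at 0 in all 5 Dcon libraries and at 25.1, 42.5, 36.9, 41.9 and 18.5 FPKM in D3W. Its mean was at least 356-fold higher than the level of 3 fragments per library. SOSTDC1 (ENSDARG00000056021), a secreted antagonist of BMP and Wnt signals, was also at 0 throughout Dcon and reached 8.26, 11.2, 41.7, 16.4 and 48.6 FPKM in D3W, at least 109-fold above that level. Untraced cells held SOSTDC1 without injury too, at 11.6 ± 16.1 FPKM (SD, n = 6), and at 9.98 ± 11.1 at 3 weeks (n = 5). TCIM (ENSDARG00000076858), a small regulator linked to Wnt signalling in mammals, was at 18.4, 0, 0, 35 and 0 FPKM in Dcon and at 85.3, 183, 281, 638 and 251.6 in D3W. It rose by 6.18 (SE 0.96), and its second copy, TCIM (ENSDARG00000079497), by 2.05 (SE 0.49, limma adjusted p = 0.0376). These paralogues share a name, and the copies could share reads.

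**Figure D2:**
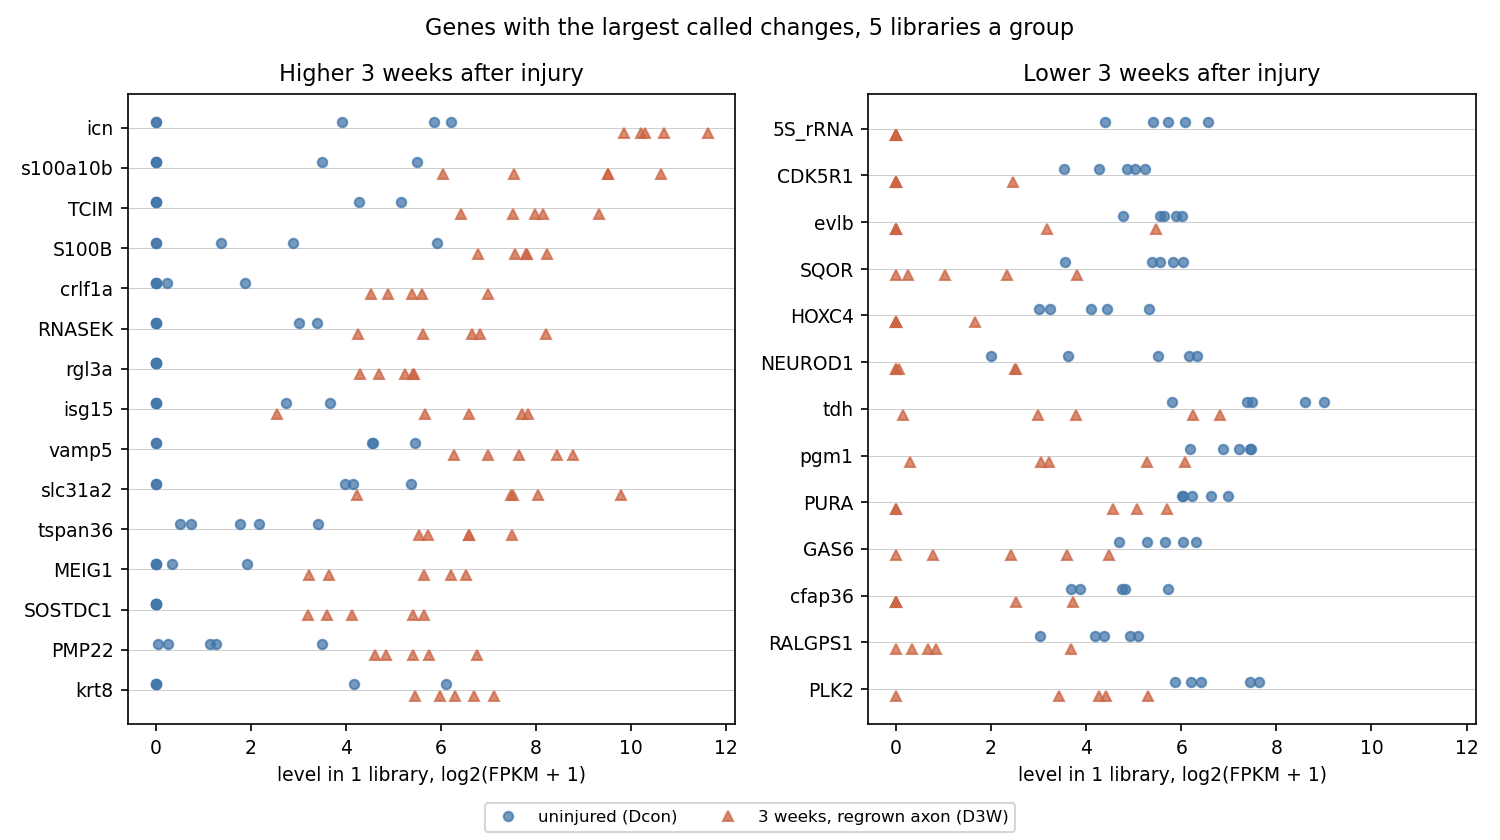
Level in each library as log2(FPKM + 1) for the 15 genes with the largest rise and 13 of those with the largest fall by the naming rule given with the processing, with circles for Dcon and triangles for D3W. The groups are apart for all of the higher genes except isg15, slc31a2 and krt8, and for the lower genes except evlb, SQOR, NEUROD1, tdh, cfap36 and RALGPS1.

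Genes for membrane and vesicle proteins were also among the increases, and were not tested as a group. vamp5 and VAMP3, which code for vesicle fusion proteins (v-SNAREs) outside the synaptic vesicle set, were at 0 to 43.0 and 0 to 15.4 FPKM in Dcon. In D3W vamp5 was at 76.9, 125, 439, 348 and 199 FPKM, above every Dcon library, and rose by 4.95 (limma adjusted p = 0.00666). VAMP3, chosen after its values were seen, was at 26.4, 32.4, 139.8, 65.6 and 11.7 FPKM and rose by 3.76, with replicate 5 inside the Dcon range. tspan36, a tetraspanin gene known from zebrafish pigment cells, was at 0.423 to 9.60 FPKM in Dcon and 45.5 to 179.9 in D3W and rose by 4.93 (SE 0.89). slc31a2, a copper transporter gene, rose by 4.95, from at most 40.1 FPKM in Dcon to between 17.9 and 885 in D3W. The lowest D3W library overlapped Dcon. The calls of vamp5, tspan36 and slc31a2 were lost without D3W replicates 3 and 5 (limma adjusted p = 0.140, 0.0741 and 0.113). They were also lost with voom on recovered fragments (limma adjusted p = 0.0661, 0.0976 and 0.154). With only Dcon and D3W fitted, those of vamp5 and slc31a2 were lost (limma adjusted p = 0.102 and 0.165). Also chosen after their values were seen, CD63, a tetraspanin of late endosomes, rose by 2.49 and the cholesterol exporter ABCA1 by 2.02, both without overlap of the groups. FABP3, a fatty acid binding protein gene, was at 314, 240.4, 312, 171 and 239 FPKM in Dcon and at 365, 592, 1655, 871 and 614 in D3W. It rose by 1.87 (SE 0.36, limma adjusted p = 0.00836), and all D3W libraries were above Dcon.

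Genes for contractile and actin-binding proteins also rose among these calls; they were singled out after their values were seen and were not tested as a group. The tropomyosin gene tpm4a rose by 3.87, the unconventional myosin gene myo10l3 by 3.60, the supervillin gene SVIL by 3.06 and the myosin phosphatase subunit gene ppp1r12b by 3.77. ROCK2 (ENSDARG00000004877), a kinase that regulates actomyosin and growth cone collapse, was at 0 to 1.57 FPKM in Dcon and at 4.40, 5.58, 23.5, 8.45 and 5.91 in D3W, a rise of 2.63 (SE 0.67, limma adjusted p = 0.0461). Among growth factor genes, igf2b was at 0 to 1.34 FPKM in Dcon and 1.70 to 21.6 in D3W and rose by 2.87. The receptor gene FGFR1 (ENSDARG00000011027) rose by 2.73, from at most 1.78 FPKM to at least 4.62.

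Some genes best known from skin and other epithelia were higher in D3W. Of 38 such genes in a list made after the values were seen, 11 met the rule, 5 of these rose and 0 fell, all 11 fold changes were positive, and their median was 3.88. Besides the S100 genes icn and s100a10b, they included krt8 and ANXA1. The simple epithelial keratin gene krt8 was at 0, 0, 17, 0 and 68.3 FPKM in Dcon and at 77.7, 102, 42.7, 62.5 and 137 in D3W, a rise of 4.43 (SE 0.94), and Dcon replicate 5 lay inside the D3W range. Its usual partner krt18a.1 had a fold change of 3.88 that did not pass (limma adjusted p = 0.0635). ANXA1, an annexin that limits inflammation, was at 0 to 1.65 FPKM in Dcon and at 36.1, 3.89, 47.0, 24.4 and 37.2 in D3W and rose by 4.36 (limma adjusted p = 0.0438). Its call was lost without any one of 8 of the 10 libraries. Other epithelial genes were low: the adhesion gene epcam was at most 4.81 FPKM and the claudin gene cldni at most 1.67 in any D3W library. The summed level of the 38 genes was 180.5 to 542 FPKM in Dcon and 1522 to 6209 in D3W, and their part in these results was not tested. That sum includes icn, at 925 to 3130 FPKM in D3W, and s100a10b, at 64.5 to 1573. Both are also in the S100 list below, so the sum does not show a rise across epithelial genes. Without D3W replicates 3 and 5 the median was 3.63 and 3 of the 11 were called. In untraced cells, the same list had a median fold change of 1.96 for G3W against Gcon.

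In the wider S100 list 5 genes met the rule, of which 3 rose, with a median of 5.78. Summed over all 13 genes of the list, levels were 0 to 187 FPKM in Dcon and 1297 to 5033 in D3W. Of the 3 calls, 2 held without D3W replicates 3 and 5, and 0 held with voom on recovered fragments (limma adjusted p = 0.331 for icn). In untraced cells the 5 genes had a median fold change of 2.26, and icn was at 545 ± 458 FPKM without injury (SD, n = 6). The 9 annexin genes had a median of 1.85 and ANXA1 was the 1 that passed. ANXA2, the partner of S100A10 in mammals, was at 15, 0, 3.85, 0 and 9.01 FPKM in Dcon and at 181, 14.1, 29.3, 96.7 and 76.5 in D3W. Its fold change of 4.16 had an SE of 1.35 and did not pass (limma adjusted p = 0.134).

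Interferon and antigen presentation genes were higher in part. Of 14 genes of a list made after values were seen, 3 rose and 0 fell, and the median fold change was 0.75. In untraced cells the same genes had a median of 1.25 for G3W against Gcon. isg15, a ubiquitin-like modifier made in response to interferon, was at 0, 0, 11.7, 0 and 5.73 FPKM in Dcon and at 4.90, 49.5, 227, 206 and 95.3 in D3W. It rose by 4.97 (SE 1.21, limma adjusted p = 0.0393), and D3W replicate 1 stayed inside the Dcon range. The isg15 call held in 4 of the 10 fits that each left out one library and in 2 of the 10 other fits. PSME1, an activator subunit of the proteasome that favours antigen processing, rose by 4.0 (SE 0.77), from at most 19.6 FPKM to at least 25.2. The class I light chain gene b2m was at 364, 181, 119, 249 and 81.4 FPKM in Dcon and at 471, 496, 235, 715 and 456 in D3W and rose by 1.70 (SE 0.40, limma adjusted p = 0.0337). It rose in untraced cells too, by 1.94. The class I heavy chain gene mhc1zba had a fold change of 1.92 without overlap of the groups and did not pass (limma adjusted p = 0.106). Summed over the 37 genes of the list, levels were 241.8 to 827 FPKM in Dcon and 811 to 1211 in D3W. Without D3W replicates 3 and 5, 0 of the 14 genes were called and the median was 0.96. The summed level of microglia and macrophage markers, which such genes can come with, was 1119 to 5470 FPKM in Dcon and 1282 to 14233 in D3W. None of the 17 that met the rule passed, 6 had a positive fold change, and their part in the result was not tested.

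The gp130 cytokine list held crlf1a as its 1 gene of 11 that rose, with a median of 0.93. The feedback inhibitor genes SOCS3 (ENSDARG00000026611) and SOCS3 (ENSDARG00000025428) had fold changes of 2.63 and 2.52 that did not pass (limma adjusted p = 0.133 and 0.206). CYP26B1, which degrades retinoic acid, was at 0.196, 0.287, 0, 0 and 0 FPKM in Dcon and at 3.34, 9.77, 30.7, 7.16 and 12.7 in D3W. It rose by 3.47 (SE 0.70), and the other 11 genes of the retinoic acid list, made after values were seen, did not pass. scn4ab, a voltage-gated sodium channel gene known from muscle, was at 0 in 4 Dcon libraries and 0.498 FPKM in the fifth. In D3W it was at 8.72, 18.1, 59.8, 27.6 and 8.78 FPKM, and the other 7 sodium channel genes did not pass.

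Most markers of glia that met the rule had positive fold changes. The oligodendrocyte and Schwann cell list had a median fold change of 1.80 over 18 genes, 15 of them positive, and the astroglial and ependymal list one of 2.05 over 16 genes, 15 of them positive. One gene of each passed. PMP22, a protein of peripheral myelin, was at 0.0411 to 10.3 FPKM in Dcon and at 107, 41.3, 27.9, 53 and 23.3 in D3W and rose by 4.43 (SE 1.05, limma adjusted p = 0.0337). The astroglial calcium-binding gene S100B rose by 5.78, from 0, 0, 1.59, 6.45 and 59.1 FPKM to 219, 109, 187, 224 and 298. Classic markers varied within both groups. plp1b, a major myelin protein gene, was at 23.6, 1402, 3373, 0 and 3262 FPKM in Dcon and at 233, 2373, 7699.6, 2146 and 1133 in D3W, with a fold change of 3.26 and an adjusted p = 0.32 by limma. GFAP, the astroglial intermediate filament gene, was at 0, 0, 6.40, 2.79 and 168 FPKM in Dcon and at 198, 56.4, 0, 125 and 507 in D3W. Its fold change of 3.56 did not pass. The summed oligodendrocyte markers were at 3740 to 9524 FPKM in Dcon and 2569 to 22598 in D3W, and the summed astroglial markers at 484 to 3760 and 1185 to 3302. In sorted pools, more cells of a type and more RNA per cell cannot be told apart, and the part of glial RNA in the other results was not tested. Without D3W replicates 3 and 5 the 2 medians were 1.54 and 2.0, and 0 genes of either list were called. The PMP22 call held in 3 of the 10 fits that each left out one library. Also chosen after their values were seen, GJB1 (ENSDARG00000035553), a gap junction gene of myelinating cells, rose by 3.43 and QKI (ENSDARG00000010018), an RNA-binding regulator of myelination, by 2.68. D3W replicate 3 was the highest library for both, and the groups overlapped.

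**Figure D3:**
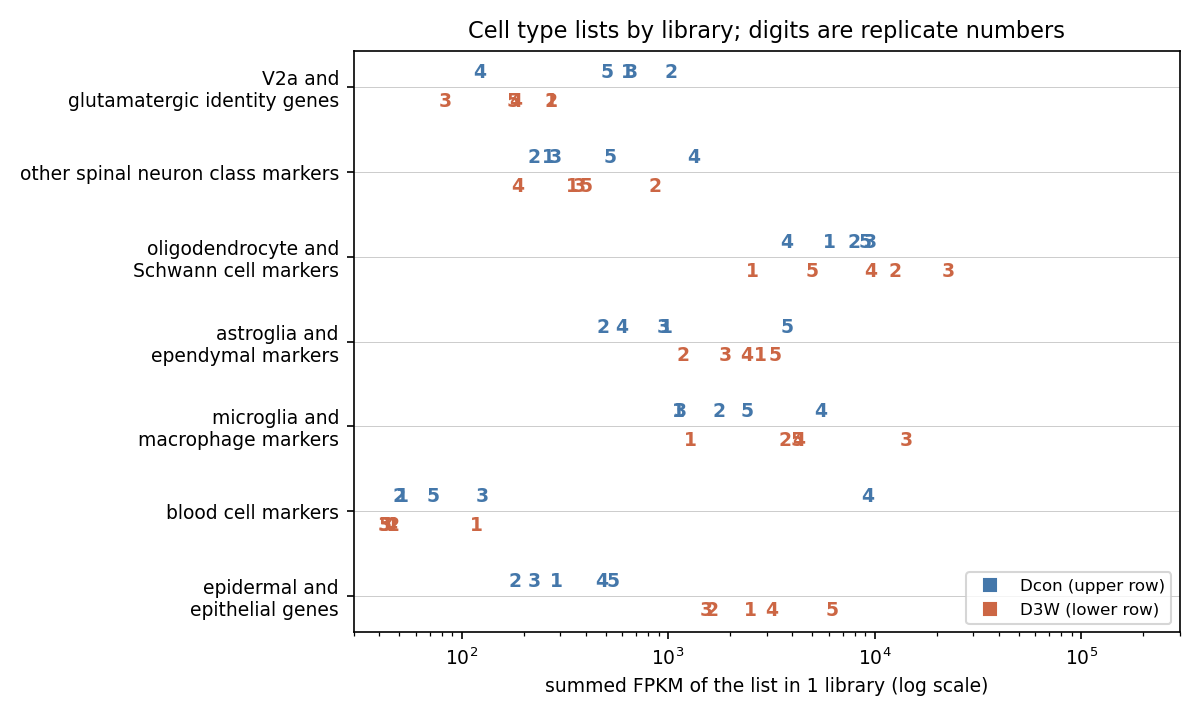
Summed deposited FPKM of the cell type lists in each library, on a log axis, with digits for the replicate number of Dcon and D3W. Dcon replicate 4 is the highest library of the blood list (9243 FPKM) and the lowest Dcon library of the V2a list (123). The epidermal list, which includes icn and s100a10b, is higher in every D3W library (1522 to 6209) than in any Dcon library (181 to 542).

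Genes of V2a identity were lower in most D3W libraries, without any passing the test. LHX4, a LIM homeodomain factor, was at 30.5, 104, 66.6, 30.1 and 45.2 FPKM in Dcon and at 25.8, 18.2, 0.21, 7.56 and 3.63 in D3W, with no overlap and a fold change of -2.47 (limma adjusted p = 0.0695). LHX3, a related factor, had a fold change of -0.35 and its sign turned in some settings. Of 8 identity genes 7 were negative, with a median of -1.65, and without D3W replicates 3 and 5 it was -0.92. The markers VSX1 and SLC17A8 were at 0 in all 10 libraries. The vesicular glutamate transporter gene SLC17A6 (ENSDARG00000041150) was at 140.3, 104, 91.4, 5.81 and 51.5 FPKM in Dcon and at 88.8, 56.1, 40.7, 35.4 and 38.0 in D3W. Its fold change was 0.20, and it was -0.52 without Dcon replicate 4. The second copy, SLC17A6 (ENSDARG00000001127), was at 9.79 to 32.6 FPKM in Dcon and at 0 to 19.8 in D3W. The groups overlapped, and its fold change of -1.80 did not pass (limma adjusted p = 0.248).

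Genes of central energy metabolism were lower in traced cells after injury. Of 24 glycolysis genes, 4 fell and 0 rose, with a median fold change of -0.73, and 10 had every D3W library below every Dcon library. That held for 1.18% of all genes tested, and it was judged on deposited FPKM, whereas the fold changes are scaled. Of 23 genes for pyruvate dehydrogenase and the citric acid cycle 3 fell and 22 were negative, at a median of -1.26. Both lists were made after values were seen. In untraced cells their medians were -0.39 and -0.59 for G3W against Gcon. A glycolysis list with fewer gene names matched 16 genes. Of these, 13 met the rule and 1 fell, with a median of -0.61 over the 13.

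ALDOC (ENSDARG00000019702), the neural aldolase, was at 2779.6, 2495, 2368, 1745 and 1682 FPKM in Dcon and at 1381, 1117, 318, 312 and 300.0 in D3W. It fell by 1.66 (SE 0.34, limma adjusted p = 0.0120). PKM (ENSDARG00000099730), the pyruvate kinase of the last step, was at 1079, 1948, 1899, 1617 and 1187 FPKM and then at 498, 787, 169, 114 and 179, and fell by 2.14 (SE 0.44, limma adjusted p = 0.0123). For both genes the 5 D3W libraries lay below all of Dcon, and replicates 3, 4 and 5 were the lowest. The enolase gene ENO1 (ENSDARG00000022456) fell by 1.59, from 2258 to 3821 FPKM in Dcon to 435 to 1441 in D3W, and the phosphoglucomutase gene pgm1 by 3.19, from 72.3 to 175 FPKM to 0.22 to 66.2. GPI (ENSDARG00000012987) and LDHB, which act at the start of glycolysis and on its product, had fold changes of -1.24 and -1.01 with no overlap, and neither passed (limma adjusted p = 0.0780 and 0.0974). The glycolytic dehydrogenase gene GAPDHS had a fold change of -0.74 (limma adjusted p = 0.374). The hexokinase gene HK2 had a positive one of 1.87 that did not pass.

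Citrate synthase (CS), the entry enzyme of the citric acid cycle, was at 90.7, 58.1, 40.2, 90.3 and 50.2 FPKM in Dcon and at 13.2, 34.4, 1.81, 1.71 and 3.78 in D3W. It fell by 2.87 (SE 0.57, limma adjusted p = 0.0112). The groups did not overlap, and this call held whichever single Dcon or D3W library was left out. The pyruvate dehydrogenase subunit genes pdha1a and DLAT fell by 2.25 (limma adjusted p = 0.0313) and 2.36 (0.0314). D3W replicate 2 was the highest of its group for all 3 genes. MDH2, PDHB and DLST had fold changes of -1.29, -1.40 and -2.85, and FH (ENSDARG00000075132) one of -2.64, all without overlap and none passing.

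Genes for 2 subunits of the mitochondrial ATP synthase fell too. ATP5F1A was at 863, 1681, 1389.8, 1345 and 1319 FPKM in Dcon and at 470.3, 893, 106, 178 and 194 in D3W, a fall of 1.89 (SE 0.39, limma adjusted p = 0.0140). ATP5F1B fell by 1.77 (SE 0.36, limma adjusted p = 0.0120), and for both, one Dcon library lay within the D3W range. The phosphate carrier SLC25A3 (ENSDARG00000025566), chosen after its values were seen, fell by 1.48. These 2 ATP synthase genes were the 2 of 90 nuclear respiratory chain genes that passed. The list as a whole had a median of 0.20, which was -0.15 as deposited and -0.17 after quantile normalization and -0.03 without D3W replicates 3 and 5, with 53 positive and 37 negative. All 13 mitochondrial genome genes had a positive fold change instead, with a median of 0.89 and 0 passing. MT-CO2 was at 16625, 24507, 24527, 22136 and 30084 FPKM in Dcon and at 29607, 31373, 46719, 64117 and 72881 in D3W, with a fold change of 1.33 (limma adjusted p = 0.0661). The median of the 13 was 0.55 as deposited and 0.21 after quantile normalization, and 0.02 in untraced cells.

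The glycolysis and citric acid cycle calls were lost without the 2 libraries with fewest genes. That fit also has fewer D3W libraries, and the part of this in the loss was not tested. With no Dcon or D3W library left out but only these groups fitted, 1 glycolysis gene and 0 citric acid cycle genes were called. In that fit the limma adjusted p was 0.235 for CS, 0.102 for ALDOC (ENSDARG00000019702) and 0.0549 for PKM (ENSDARG00000099730). Without D3W replicates 3 and 5 the median of the glycolysis list was -0.73 and that of the citric acid cycle list -0.90, and 0 genes of either passed. CS then had a fold change of -2.40 (limma adjusted p = 0.15), ALDOC (ENSDARG00000019702) one of -1.33 (0.212) and PKM (ENSDARG00000099730) one of -1.94 (0.156).

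Ion pumps and proton pumps followed in part. Of 23 vacuolar ATPase genes, another list made after values were seen, whose products acidify lysosomes and power the loading of synaptic vesicles, 2 fell and 19 were negative, at a median of -0.82. ATP6V1A (ENSDARG00000076318), the catalytic subunit, was at 157, 134, 129, 213 and 100.4 FPKM in Dcon and at 58.7, 110.3, 11.2, 22.7 and 2.43 in D3W and fell by 2.31 (SE 0.55, limma adjusted p = 0.0351). The second copy, ATP6V1A (ENSDARG00000034534), had a fold change of -1.26 that did not pass. ATP6V1B2 (ENSDARG00000013443), of the same head complex, fell by 2.82, from 47.1 to 82.6 FPKM to 0.0651 to 39.0. Both calls were lost without D3W replicates 3 and 5 (fold changes of -1.27 and -1.13). The median of the vacuolar ATPase list in untraced cells was -0.32 for G3W against Gcon. Of 15 sodium pump genes 2 fell. atp1a3a, the neuronal catalytic subunit, was at 283, 291, 173, 188 and 259.7 FPKM in Dcon and at 85.3, 104, 71.5, 49.1 and 52.2 in D3W, a fall of 1.39 (SE 0.34, limma adjusted p = 0.0415). The groups were apart, but the call was lost in 8 of the 10 fits that each left out one library. ATP1B1 (ENSDARG00000076833), a beta subunit, fell by 2.52 (SE 0.46, limma adjusted p = 0.00499), from at least 1166 to at most 597 FPKM. None of the 15 genes was called without D3W replicates 3 and 5. The paralogue ATP1B1 (ENSDARG00000013144) had a fold change of 1.37 that did not pass.

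**Figure D4:**
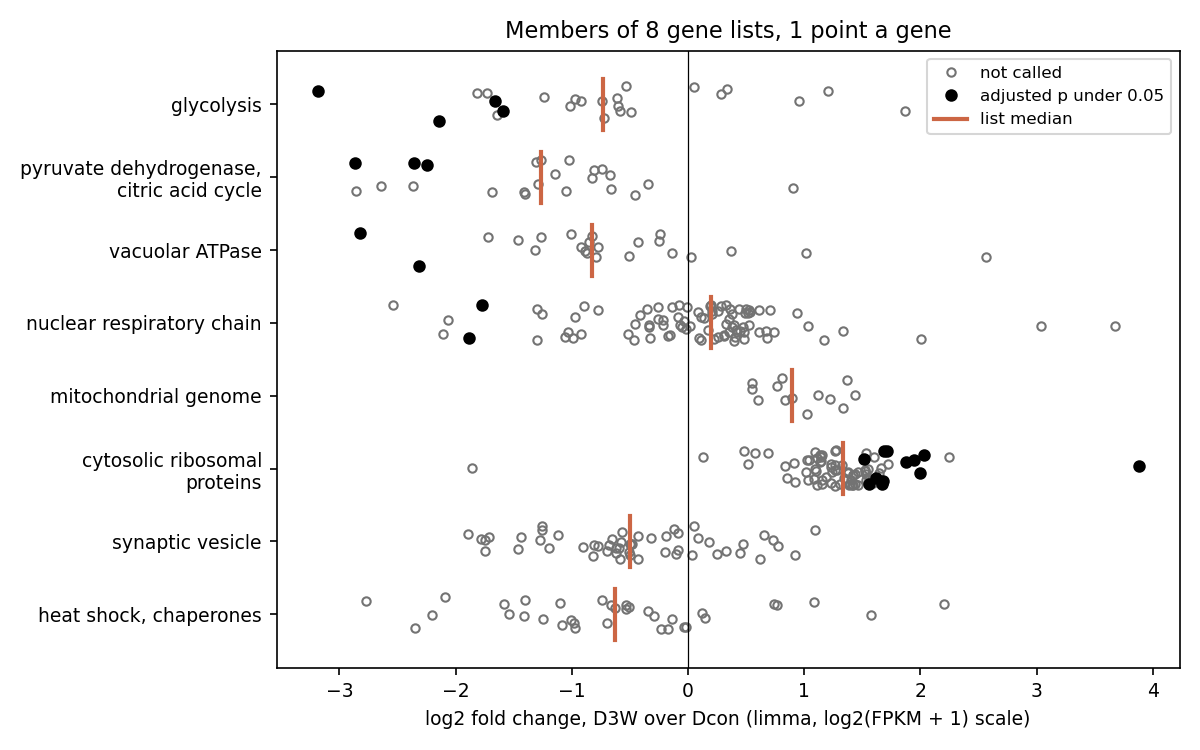
Fold change of D3W against Dcon (log2(FPKM + 1) scale) for each gene of 8 lists, with a line at each list's median. The cytosolic ribosomal protein list (median 1.33) lies mostly above 0, and the citric acid cycle (-1.26), vacuolar ATPase (-0.82) and glycolysis (-0.73) lists mostly below.

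Genes for Cdk5 activators and a potassium channel fell. Cdk5 is a kinase of neurons that needs an activator. Its activator CDK5R1 (ENSDARG00000037916) was at 18.4, 28.2, 36.8, 31.7 and 10.7 FPKM in Dcon and was at 0 in 4 D3W libraries and 4.54 in replicate 2. CDK5R2 (ENSDARG00000071011) was at 624, 246, 331, 388 and 278 FPKM in Dcon and at 120.4, 147, 5.67, 55.6 and 40 in D3W and fell by 2.52 (SE 0.52, limma adjusted p = 0.0131). All 5 genes of the Cdk5 list, which was made after values were seen, had a negative fold change. That of CDK5 itself was -1.61 and did not pass (limma adjusted p = 0.40). Neither activator was called without D3W replicates 3 and 5 (limma adjusted p = 0.129 and 0.212). KCNC1 (ENSDARG00000032959), a fast potassium channel gene, fell by 2.78 with D3W replicate 2 in the Dcon range, as the 1 of 38 potassium channel genes to pass, and lost its call without those libraries.

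Transcription factor genes among the calls were NEUROD1, HOXC4 and pbx1a, of which pbx1a was chosen after its values were seen. NEUROD1, a neuronal differentiation factor, was at 79.3, 70.9, 44.9, 11.3 and 3.01 FPKM in Dcon and at 0.0446, 4.79, 0, 4.64 and 0 in D3W and fell by 3.48 (SE 0.74). HOXC4, which marks axial position, was at 7.04 to 39.0 FPKM in Dcon and above 0 in 1 D3W library (2.16), a fall of 3.49. pbx1a, a Hox cofactor, fell by 2.16. PURA (ENSDARG00000067591), an RNA-binding protein of mRNA transport granules, fell by 3.13, from at least 63.8 FPKM to at most 50.7. It was at 0 in D3W replicates 3 and 5. Without these libraries the fold changes of PURA, NEUROD1 and HOXC4 were -1.12, -2.80 and -3.29. None of them was then called (limma adjusted p = 0.535, 0.223 and 0.202). Further RNA-binding protein genes were singled out after their values were seen. STAU2, which carries mRNA into neurites, fell by 2.22, from 147 to 278 FPKM to 3.16 to 137, the splicing regulator KHDRBS2 fell by 2.77 and the cold-inducible cirbpb by 1.81. Also chosen in this way, the histone variant gene H3-3B was at 151, 249, 313, 294 and 322 FPKM in Dcon and at 47.3, 61.9, 87.0, 44.1 and 76.1 in D3W. It fell by 1.71 (SE 0.39, limma adjusted p = 0.0313), and by 2.18 without D3W replicates 3 and 5.

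Several lists of synaptic and excitability genes had negative medians and few or no calls. The sodium channel and neuropeptide lists had positive medians, of 0.43 over 8 genes with 1 called and 0.51 over 15 genes with 0 called. The median was -0.50 over 53 synaptic vesicle genes, -0.41 over 26 glutamate receptor genes, -0.39 over 22 GABA and glycine receptor genes and -0.27 over 26 calcium channel genes, with 0 called in each. The glutamate receptor median was -0.16 and the GABA and glycine receptor median -0.06 without D3W replicates 3 and 5. At an unadjusted p under 0.05 the counts lower were 15, 5, 5 and 2. Of the 12357 genes, which include these lists, 1154 were lower and 1097 higher at that level. Over all genes tested 5.86% were lower and 6.62% higher. In the same 4 lists 0, 1, 1 and 0 genes were higher at that level. Medians of these 4 lists in untraced cells were -0.42, -0.33, -0.23 and -0.15 for G3W against Gcon. GRIN1 (ENSDARG00000025728), an NMDA receptor subunit, was at 41.5 to 54.5 FPKM in Dcon and 5.28 to 25.7 in D3W, with a fold change of -1.28 (limma adjusted p = 0.138).

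Genes best known for axon regrowth gave few calls. Of 50 growth cone and axon cytoskeleton genes 0 rose and 2 fell, with a median of -0.35 (-0.19 without D3W replicates 3 and 5), and of 30 injury transcription factors 0 passed, with a median of 0.19 that was -0.08 as deposited and after quantile normalization. gap43, a growth cone protein, was at 439.8, 303, 191, 505 and 469.9 FPKM in Dcon and at 271, 213, 660.1, 633 and 227 in D3W, with a fold change of 0.32 (SE 0.64, limma adjusted p = 0.907). ATF3 was at 517, 70.0, 92.8, 161 and 88.0 FPKM and then at 221, 66.8, 154, 109 and 125, with a fold change of 0.22 (SE 0.55). JUN had one of 0.16 (SE 0.57). Both are transcription factors of the injury response, and the groups overlapped broadly for all 3 genes. The 2 growth cone genes that fell were DCLK1 (ENSDARG00000018856), a microtubule-binding kinase of growing neurites, and evlb, of the Ena/VASP family of actin regulators. DCLK1 (ENSDARG00000018856) was at 115 to 248 FPKM in Dcon and 9.80 to 74.4 in D3W and fell by 2.06 (SE 0.47). evlb was at 26.5 to 63.5 FPKM in Dcon, at 0 in 3 D3W libraries and at 43.1 in replicate 2, and fell by 3.70 (limma adjusted p = 0.0460). basp1, which acts beside gap43 at the membrane, had a fold change of -1.63 without overlap (limma adjusted p = 0.0565). The actin-binding tmsb4x had a positive one of 1.28 (0.0822). PLK2 (ENSDARG00000019130), a kinase of synaptic scaling, fell by 2.96 and GAS6, a secreted ligand of TAM receptors, by 3.12, both without overlap. Axon guidance genes numbered 55, with 0 called and a median of -0.36, which was 0.19 without D3W replicates 3 and 5. Kinesin and dynein genes numbered 30, with 0 called and a median of -0.21, which was 0.01 after quantile normalization and 0.21 without those libraries.

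Genes of protein synthesis and cell stress moved in different ways. Among 80 cytosolic ribosomal protein genes 12 rose and 79 were positive, at a median of 1.33, beside 1.04 in untraced cells. Summed over all 84 genes of the list, levels were 12895 to 28239.9 FPKM in Dcon and 18356 to 80446 in D3W, highest in replicate 5. Without D3W replicates 3 and 5 the median was 0.76 and 0 were called, and without one library the count called ran from 1 to 56. EIF4EBP3, a repressor of cap-dependent translation, was at 8.18 to 18.9 FPKM in Dcon and at 158, 81.2, 90.3, 131 and 240.5 in D3W. It rose by 3.39 (SE 0.85, limma adjusted p = 0.0458), as the 1 of 50 translation factor genes to pass, with the groups well apart. The EIF4EBP3 call held in 2 of the 10 fits that each left out one library and in 4 of the 10 other fits. In the p53 and apoptosis list of 35 genes 2 rose, rps27l and mcl1b, and the median was 0.70. mcl1b, a survival factor of the BCL2 family, was at 277, 84.9, 40.7, 82.5 and 110.5 FPKM in Dcon and at 325, 132, 638, 375 and 274 in D3W, a rise of 2.0 (SE 0.47, limma adjusted p = 0.0337). Heat shock and chaperone genes had a median of -0.63 over 35, with 28 negative and 0 called. The mitochondrial chaperone gene HSPD1 had a fold change of -2.77 (limma adjusted p = 0.0572). The proteasome list had a median of 0.00 over 48 genes and PSME1 as its 1 call.

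Untraced cells were used to ask whether these changes differed between traced and untraced neurons. Of the 105 genes that rose, 97 had a positive fold change for G3W against Gcon, with a median of 1.00, and 5 passed there. Over all genes tested 59.4% were positive in untraced cells, with a median of 0.14, and 0.0798% (18 genes) rose and 0.0133% (3 genes) fell. Among the 5 were TCIM (ENSDARG00000076858), scn4ab, CYP26B1 and b2m. Of the 65 that fell, 57 had a negative fold change there, with a median of -0.78, and 1 passed, the symbol-less ENSDARG00000113723. In untraced cells scn4ab rose by 4.83, from 0 in all Gcon libraries to 61.5 ± 50.6 FPKM (SD, n = 5). CYP26B1 rose by 4.06 there. The test of the difference between the 2 responses passed for 1 gene, or 0.00443% of all genes tested, with 1267 at an unadjusted p under 0.05. That gene was 5S_rRNA (ENSDARG00000108569), a 5S ribosomal RNA gene. Such genes have near-identical copies, and read assignment was not tested. It was at 94.0, 41.5, 20.1, 66.4 and 51.9 FPKM in Dcon and at 0 in all D3W libraries, at least 33.1-fold lower, and at 34.3 ± 25.5 in Gcon (n = 6) and 59.5 ± 34.2 in G3W (n = 5). The difference of the responses was -6.32 (limma adjusted p = 0.0317). As the gene met the rule only through Dcon, its fall in traced cells had to appear, and the difference contains that fall. The call for the difference was lost in 15 of the 21 fits that each left out one library. It was also lost without a filter, with voom, and without D3W replicates 3 and 5. For the energy genes the difference did not pass: it was -1.96 for CS and -0.29 for ALDOC (ENSDARG00000019702), whose untraced fold changes were -0.91 and -1.37 (limma adjusted p = 0.87 and 0.977 for the differences).

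**Figure D5:**
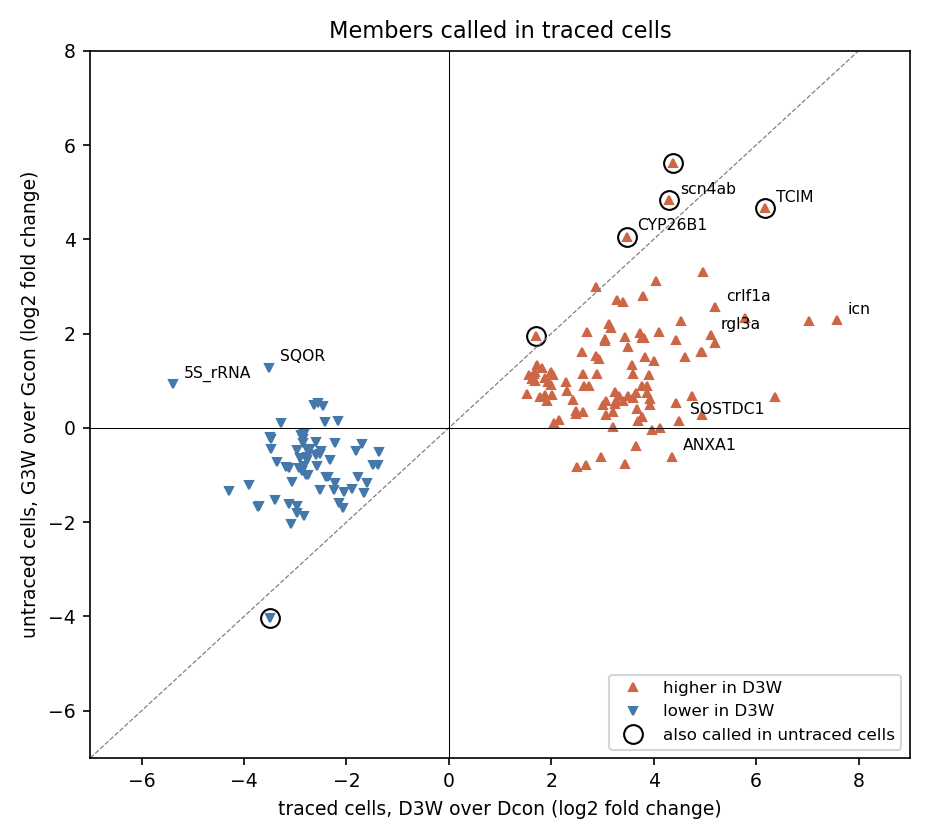
Fold change of traced cells (D3W against Dcon) on the horizontal axis and of untraced cells (G3W against Gcon) on the vertical axis, both on the log2(FPKM + 1) scale, for the 170 genes that rose or fell in traced cells. Most of the 105 higher genes lie above 0 for untraced cells and most of the 65 lower genes below 0, at smaller sizes, and traced values were the ones by which these genes were chosen.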

How the data were processed

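The authors deposited 1 table of FPKM per gene and library; per the submitters' processing notes, danRer11, HTSeq 0.9.1 and HISAT2 2.0.5 were used, with roles not stated. The strand setting is not given in the sources used here, so antisense and overlapping genes cannot be told apart. Gene lengths and totals were inferred from the steps of low values and serve for depth and for 1 alternative. The recovered fragments covered 69.2% to 89.1% of the inferred totals, and limits from 3 fragments cover counting error only.

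Libraries were scaled by median ratios over 6387 genes that reached 1 FPKM in at least 28 of 32 libraries (pseudocount 0.1). For 22552 genes that reached 1 FPKM in at least 5 libraries, log2(FPKM + 1) was fitted with limma 3.58.1 (R 4.3.3, trend, robust), with 1 mean for each of 6 groups and two-sided tests. The fit was tested on simulated data. Tables used Python 3.11.15, numpy 2.4.6 and pandas 2.3.3.

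Genes were named by a rule: the 15 highest and 15 lowest called fold changes with a symbol, a mean of at least 5 FPKM and 3 libraries at 1 FPKM or more in the higher group, and medians that differ the same way; up to 5 called genes per list; genes passing the traced against untraced difference; and a few genes by name, among them VSX1, LHX3, SLC17A6, gap43, ATF3 and JUN. A few of the genes so chosen are left out of the text. The members and lists were chosen with earlier results of these data known, 8 of the lists after values were seen. Alternatives were another pseudocount, other filters and scalings, array weights, a fit of the compared groups alone, a replicate block and left-out libraries; voom was added after seeing the data.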

Additional observations from a re-analysis of the deposited data

Results flagged for a closer look

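Among 122 groups of 5 libraries, for genes named by rule, 12 had 1 library far from the other 4. Chance alone gives about 1 in 20 only where values follow a normal distribution, which was not tested. The gap to the nearest library, as a share of the group's range, exceeded the critical value of 0.71 in each. Where 4 libraries were at 0 this share is 1.000 whatever the other value, so the 12 do not measure an excess over chance. In Dcon it was 0.888 for crlf1a, where replicate 2 was highest (2.67 FPKM), 0.822 for MEIG1, also with replicate 2 highest (2.80), and 1.000 for scn4ab, where replicate 5 was the 1 library above 0 (0.498). It was 0.843 for rps27l with replicate 1 at 0, 0.726 for ATP5F1B and 0.778 for ATP5F1A with replicate 1 lowest (855 and 863), and 0.862 for ATP1B1 (ENSDARG00000076833) with replicate 4 highest (2701).

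In D3W it was 0.820 for crlf1a with replicate 5 highest (127 FPKM) and 0.719 for ANXA1 with replicate 2 lowest (3.89). D3W replicate 2 was highest for RALGPS1 (0.725, at 11.9 FPKM), HOXC4 (1.000, at 2.16) and CDK5R1 (ENSDARG00000037916; 1.000, at 4.54). In HOXC4 and CDK5R1 the other 4 libraries were at 0.

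The response of 5S_rRNA (ENSDARG00000108569) differed between traced and untraced cells by -6.32 (limma adjusted p = 0.0317). The gene met the rule only through Dcon, so its fall in traced cells had to appear, and the difference contains that fall. The call for the difference was lost in 15 of the 21 fits that each left out one library. Its copies are near-identical, and read assignment was not tested.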

How the results depend on the processing

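The number of genes called moved most. From 170 it became 54 without a filter, 352 when testing only genes at 1 FPKM or more in 5 of the 10 libraries, 109 after quantile normalization, 72 with array weights, 15 with only the groups compared and 12 without D3W replicates 3 and 5. The filters change the gene set and the last 2 fits use fewer libraries by construction; for quantile normalization and array weights the cause was not tested. It stayed within 1.5 times with a pseudocount of 0.1 (142), as deposited (152), with a replicate block (123) and with voom (121, of which 56 were among the 170). Without one library it ran from 48 to 535, lowest without D3W replicate 3 and highest without D3W replicate 2. Same-numbered Dcon and D3W libraries correlated at -0.03 to 0.12 in their deviations. For numbers 1, 2 and 5 (0.063, 0.118 and 0.053) this was above the highest value with any other number (-0.003, 0.018 and 0.020). For numbers 3 and 4 (0.002 and -0.033) it was below (0.027 and 0.056). Whether the numbers pair the libraries was therefore not settled, and the main fit used no pairing.

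Of 58 named genes called, 21 kept their call whichever Dcon or D3W library was left out. TCIM (ENSDARG00000076858), crlf1a, rgl3a, scn4ab and 5S_rRNA (ENSDARG00000108569) kept it in all 10 of these fits and in all 10 other fits. Fits without a Gcon or G3W library were not counted here. rgl3a, scn4ab and 5S_rRNA met the rule only through the group where they were high, so they had to differ. Of the 58 genes, 44 lost their call with only the groups compared, 48 without D3W replicates 3 and 5, and 36 with voom. The difference between traced and untraced responses was called for 0 to 2 genes when one library was left out (2 without G3W replicate 4), with the 5S_rRNA call lost in 15 of 21 such fits, for 0 without a filter and for 0 without D3W replicates 3 and 5 (limma; 1265 and 936 at an unadjusted p under 0.05, against 1 call by voom for another gene).

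The difference in genes at 1 FPKM (-396.4) ran from -1431 to 721.8 without one library, being positive without D3W replicate 3 (721.8) or 5 (483). The mitochondrial share difference of 6.83 points ran from 5.23 to 8.37, and 6 of these fits lost its call. Uncalled genes turned sign: gap43 to -0.029 as deposited, -0.028 after quantile normalization and -0.069 with voom; ATF3 to -0.12, -0.053 and -0.082 (as deposited, quantile, without D3W replicates 3 and 5), with -0.034 to 0.67 without one library; SLC17A6 (ENSDARG00000041150) to -0.14 as deposited and with array weights and -0.028 after quantile normalization, with -0.52 (without Dcon replicate 4) to 0.51. JUN went to -0.19 as deposited, -0.23 after quantile normalization, -0.035 without D3W replicates 3 and 5 and -0.011 with voom, with -0.069 to 0.46 without one library, and LHX3 to 0.11 with a pseudocount of 0.1 and 1.09 with voom, with -0.98 to 0.25. Promoter motifs were not run, as no sequences were used here. The inferred depths and the FPKM scale limit statements on low genes.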

Other observations

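Genes for cofactor and amino acid metabolism were also among those that fell, singled out after their values were seen except SQOR and tdh. The pantothenate kinase genes pank2 and PANK1 (ENSDARG00000010098), which start the synthesis of coenzyme A, fell by 2.77 and 2.42, from 46.8 to 103 FPKM and 9.93 to 28.4 FPKM in Dcon. D3W replicate 2, at 48.6 and 18 FPKM, lay within the Dcon range for both. nampt2, of NAD synthesis, was at 25.5, 7.11, 7.06, 19.2 and 3.28 FPKM in Dcon and at 4.01, 0, 0, 0.174 and 0 in D3W and fell by 2.75, with 1 D3W library inside the Dcon range. The threonine dehydrogenase gene tdh fell by 3.40, from 55.0 to 515 FPKM to 0.112 to 111, and the sulfide oxidation gene SQOR by 3.51.

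The small nuclear RNA gene rn7sk, a repressor of transcription elongation, was at 21, 5.16, 34.1, 41.5 and 55.1 FPKM in Dcon and at 494, 61.1, 125, 848 and 1382 in D3W and rose by 4.05 (limma adjusted p = 0.0284). The groups did not overlap. The somatostatin-family gene sst6 was at 61.7 to 564 FPKM in Dcon and 820.3 to 1623 in D3W without overlap, and its fold change of 2.24 did not pass (limma adjusted p = 0.0730). Fibroblast markers had a median fold change of 1.46 over 9 genes and endothelial markers one of 1.01 over 7, with 0 called in each.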
